A study of Mus musculus with 2 samples.

Results

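The transcription factor genes Pdx1, Neurod1 and Mafa were examined for occupancy by CtBP2 in MIN6 cells, a mouse insulinoma line used as a model of the pancreatic beta cell. Each gene was represented by a fixed mm9 window that holds it: 148060001 to 148110000 of chromosome 5 for Pdx1, 79270001 to 79320000 of chromosome 2 for Neurod1 and 75555001 to 75600000 of chromosome 15 for Mafa. The rule for the windows uses gene positions and no read counts, although these genes were picked with earlier results of the data known. The windows cover 145 kb in 725 steps of 200 bp and held 7 of the 21210 CtBP2 regions called over the 21 nuclear chromosomes. The series holds 1 library of DNA precipitated with an anti-CtBP2 antibody (chromatin immunoprecipitation, ChIP) and 1 library of the starting chromatin, called input, which skipped the precipitation. Both came from MIN6 cells in regular culture, with no treatment and no genetic change named in the labels. Each group has 1 library and hence no replicate spread, so a test here sets the reads of 1 library against those of the other and says nothing of conditions. No IgG precipitation was analysed here, so DNA pulled down without CtBP2 cannot be told apart from occupied DNA.

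The 3 factors are the activators that act together on the insulin promoter. Pdx1 is a homeodomain protein needed to form the pancreas, and in the adult beta cell it binds elements with a TAAT core in the insulin gene. Neurod1 is a basic helix-loop-helix protein that pairs with E proteins and binds E-boxes, sites with the letters CANNTG. Mafa is a basic leucine zipper protein that appears late in beta cell development and is a marker of mature, glucose-responsive cells. CtBP2 does not read DNA letters itself but is brought to chromatin by partner proteins, where it recruits enzymes that modify histones and usually lowers transcription, and its state depends on NADH. Loss of Pdx1, Neurod1 or Mafa from beta cells is a textbook sign of lost identity, which makes their own regulatory DNA of interest for a corepressor in these cells.

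The RefSeq promoters of Pdx1 and Neurod1 are shown as the reference start-site sequence of these genes, from 250 bases before to 50 bases after the annotated start. They are on build GRCm38.p6, and their place in the mm9 windows was not determined, so no read count below is assigned to them. Capitals mark E-boxes (CANNTG, which reads the same on both strands).

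Pdx1 promoter, chr5:147269847-147270146, plus strand: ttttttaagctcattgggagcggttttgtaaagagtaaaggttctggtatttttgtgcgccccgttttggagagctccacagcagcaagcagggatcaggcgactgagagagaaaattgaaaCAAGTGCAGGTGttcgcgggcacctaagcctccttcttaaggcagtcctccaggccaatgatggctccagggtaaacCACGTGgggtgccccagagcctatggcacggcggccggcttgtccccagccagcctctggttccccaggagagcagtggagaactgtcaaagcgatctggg

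Neurod1 promoter, chr2:79456587-79456886, minus strand: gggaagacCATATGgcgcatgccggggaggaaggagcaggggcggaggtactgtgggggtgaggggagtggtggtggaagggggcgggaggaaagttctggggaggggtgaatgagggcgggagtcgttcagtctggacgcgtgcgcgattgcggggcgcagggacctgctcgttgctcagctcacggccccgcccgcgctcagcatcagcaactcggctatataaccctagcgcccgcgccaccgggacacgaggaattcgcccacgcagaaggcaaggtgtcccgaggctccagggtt

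The Pdx1 promoter held 3 E-boxes, of which the first and the next abut, and the Neurod1 promoter held 1. At least 1 E-box was present in 72.3% of the 32851 promoters of the table, and 17.6% held 3 or more. The letters TAAT were on neither strand of either promoter, so none overlapped an E-box, and 58.0% of all promoters had a match. The Neurod1 promoter was rich in G and C, at 66.7% with 26 CpG pairs, more than 85.0% of promoters for G and C and 83.1% for CpG. The Pdx1 promoter was nearer the middle at 55.3% and 11 CpG pairs, where the medians of the table were 52.7% and 7. Matches of letters describe the sequence and do not show that a factor is bound.

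After repeats of the same chromosome, position and strand were reduced to 1 read, the ChIP library held 8474671 distinct reads and the input 12471942. Input counts were multiplied by 0.679, the ratio of these totals, and are then called scaled input. A step was called where the ChIP count was at least 3 times the expected count with an adjusted p of at most 0.01 (Poisson test, Benjamini-Hochberg over 6708916 steps). The expected count was whichever was highest: the mean step of the genome, the scaled input of the step itself, or its average over 1, 5 or 10 kb around the step. Called steps up to 200 bp apart were joined into a region. Genome-wide, 0.806% of tested steps were called higher in ChIP and 0.629% lower by the mirrored rule. With 57.5% of ChIP reads and 7.20% of input reads in regions, the ratio of totals lies well above the ratio of the reads outside them. Scaling on reads outside regions, with a factor of 0.311, gave 1.14% higher and 0.162% lower, so that higher steps made up 87.5% rather than 56.1% of all calls.

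By ChIP reads, each of the 3 windows held CtBP2 enrichment at 1 strong place and at 1 to 2 weaker ones, with little signal between them. The strong place was narrow in the Pdx1 and Neurod1 windows, at 600 and 400 bp, and broad in the Mafa window, at 2400 bp. In the Pdx1 window 4 of 176 tested steps were called higher (2.27%), in the Neurod1 window 4 of 184 (2.17%) and in the Mafa window 15 of 153 (9.8%), beside the 0.806% of the genome. Neighbouring steps share fragments, and the windows were proposed because they hold genes, so these shares are a description. Most steps were empty: 163 of 250 steps of the Pdx1 window, 174 of 250 of the Neurod1 window and 145 of 225 of the Mafa window had 0 ChIP reads, and the median input was 1 read per step in each.

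**Figure D1:**
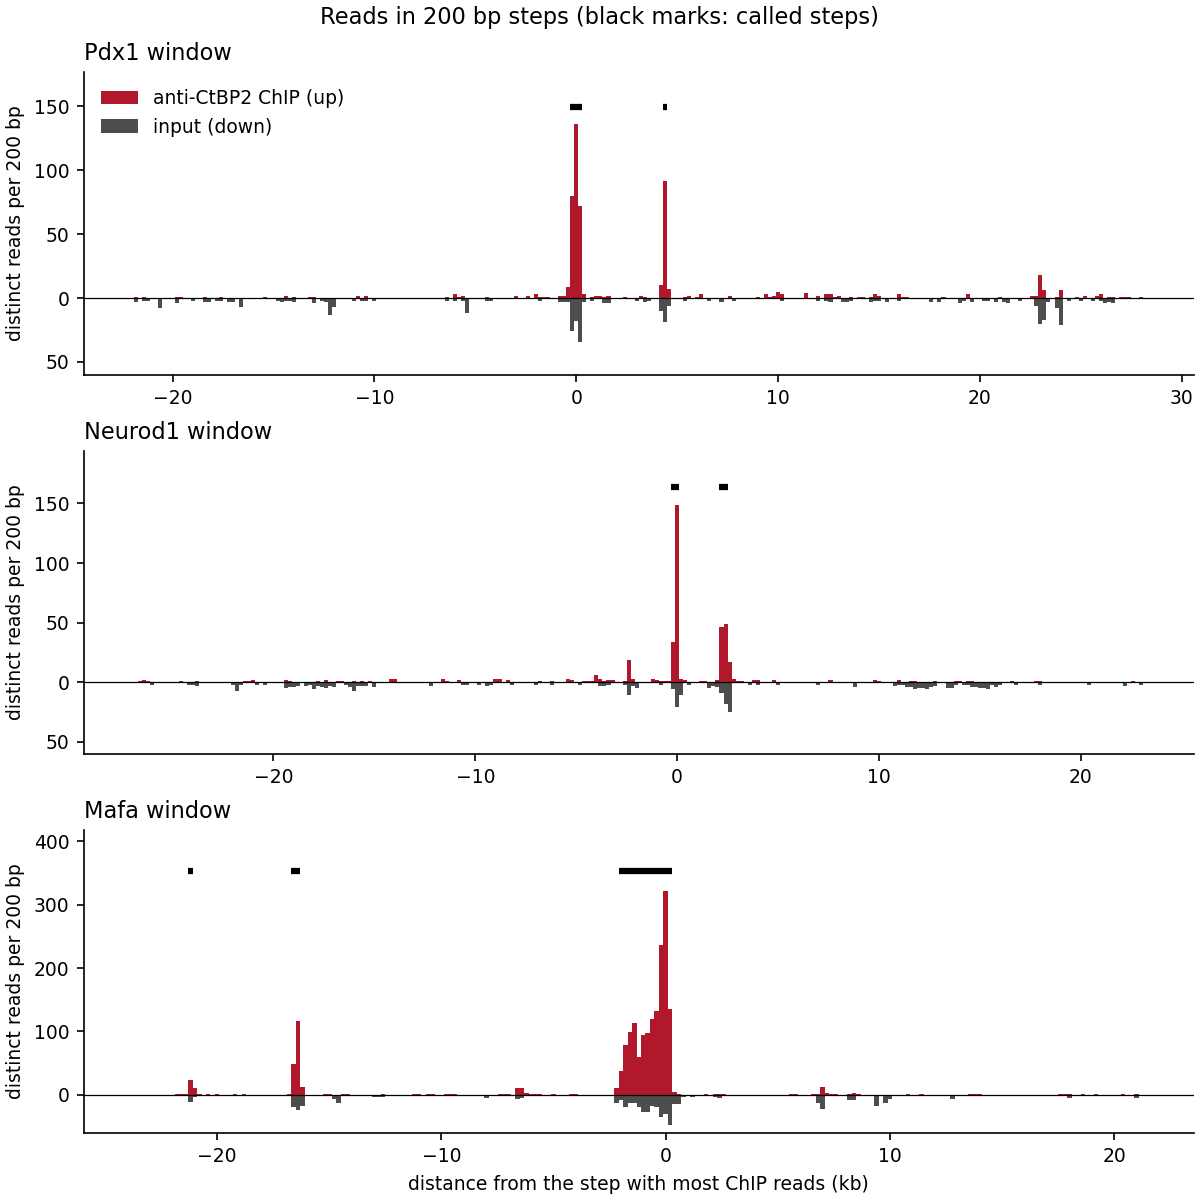
Distinct reads per 200 bp step in the Pdx1, Neurod1 and Mafa windows, anti-CtBP2 ChIP upward and input downward (unscaled), against the distance in kb from the step with most ChIP reads; black marks show called steps. The tallest steps hold 136, 149 and 321 ChIP reads, and the Mafa window alone has a run of 12 called steps.

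Mafa had by far the most CtBP2 signal of the 3 windows. Its window held 1868 distinct ChIP reads and 680 input reads, a ChIP to scaled input ratio of 4.04 (95% exact interval 3.70 to 4.42). The Pdx1 window held 566 ChIP and 489 input reads, a ratio of 1.70 (1.51 to 1.93). The Neurod1 window held 429 ChIP and 431 input reads, a ratio of 1.46 (1.28 to 1.68). All intervals here reflect the number of distinct reads alone, with copies at 1 place already reduced to 1 read. They leave out other sources of spread and are too narrow. The Mafa ratio was 2.37 times that of Pdx1 (95% exact interval on reads 2.04 to 2.76) and 2.76 times that of Neurod1 (2.34 to 3.25). With 1 library per group, these intervals do not cover the spread between replicates. The Neurod1 ratio was 0.860 times that of Pdx1, with an interval of 0.715 to 1.03, so these neighbours in the order did not differ beyond counting error. With input scaled outside regions the ratios of Mafa, Pdx1 and Neurod1 were 8.82, 3.72 and 3.20. That scaling changes all 3 by the same factor, so their order could not change.

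Against the rest of the genome the Mafa window also stood high, and the others less so. Among 57012 windows of 45 kb with input reads, the median had 55 ChIP reads and a ratio of 0.461, and 99.8% held fewer ChIP reads and 98.2% a lower ratio than the Mafa window. Among 51318 windows of 50 kb the medians were 62 ChIP reads and 0.464. Fewer ChIP reads than in the Pdx1 window were found in 91.7% of them, and a lower ratio in 87.3%. For Neurod1 the shares were 88.9% and 85.9%. Input was high at these genes as well: 97.5% of 50 kb windows held fewer input reads than that of Pdx1, 94.9% fewer than that of Neurod1, and 99.7% of 45 kb windows fewer than that of Mafa.

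The Pdx1 window held 2 regions, 4.4 kb apart from summit step to summit step. The region with more ChIP reads, called the strongest below, lay at 148081601 to 148082200 of chromosome 5. It held 288 ChIP and 78 input reads over 600 bp, a ratio of 5.43 (4.22 to 7.07). Its steps held 80, 136 and 72 ChIP reads beside 26, 18 and 34 input reads. The ChIP peak was therefore in the middle step, where input was lowest, and the fold there was 11.1 over 12.2 expected reads, against 4.53 and 3.12 in the steps beside it. The other region was a single step at 148086201 to 148086400 with 92 ChIP and 19 input reads. Its ratio was higher, at 7.13 (4.31 to 12.4), with overlapping intervals. Its ChIP density was close to that of the larger region, at 460 against 480 reads per kb. Signal fell off at once around it, to 10 ChIP reads before and 7 after. These regions held 50.9% and 16.3% of the ChIP reads of the Pdx1 window.

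Another place in the Pdx1 window had reads of both libraries and no call. The step at 148104801 to 148105000 held 18 ChIP and 20 input reads, a fold of 1.32, and that at 148105801 held 6 and 21. The first of these steps was 18400 bp from the nearest region. Input in both was as dense as in the Pdx1 regions, but ChIP was not.

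The Neurod1 window held 2 called regions, and a weaker place that missed the call. The strongest lay at 79296601 to 79297000 of chromosome 2 and held 183 ChIP and 27 input reads, a ratio of 9.97 (6.64 to 15.5), the highest point estimate of the 7 regions. Its summit step alone held 149 ChIP and 21 input reads (fold 10.4), and the step after it only 3 ChIP and 11 input reads. The second region, at 79299001 to 79299400, held 95 ChIP and 27 input reads, a ratio of 5.18 (3.35 to 8.26), with steps of 46 and 49 ChIP reads beside 9 and 18 input reads. The next step had 17 ChIP and 25 input reads (fold 1.00), so ChIP fell there while input was at its highest in the Neurod1 window. The intervals of the 2 Neurod1 ratios overlapped. Their summit steps were 2.4 kb apart.

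On the other side of the strongest Neurod1 region, and also 2.4 kb from its summit step, the step at 79294401 to 79294600 held 19 ChIP and 11 input reads. Its fold was 2.54 over 7.47 expected reads with an adjusted p of 0.031, which missed both limits. With input scaled outside regions it was called at a fold of 5.55. The Neurod1 window then held 4 regions, the other added one being a step of 6 ChIP reads and 1 input read at 79292801. Over the genome this scaling also added regions, giving 27415 rather than 21210.

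The Mafa window held a broad region and 2 narrow ones. The broad region ran from 75576601 to 75579000 of chromosome 15, 2400 bp, with 1527 ChIP and 278 input reads and a ratio of 8.08 (7.11 to 9.22). It alone held 81.7% of the ChIP reads of the Mafa window. Without it the window had 341 ChIP and 402 input reads, a ratio of 1.25 (1.08 to 1.45). The Pdx1 and Neurod1 windows without their strongest regions had ratios of 0.995 (0.852 to 1.16) and 0.896 (0.762 to 1.05). Most of the gap between the Mafa window and the others therefore came from the broad region.

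Within the broad Mafa region ChIP reads formed a lower plateau and a summit at 1 end. From the first to the last step the ChIP counts were 38, 79, 99, 113, 60, 95, 98, 119, 133, 237, 321 and 135. Input counts in the same steps were 8, 20, 13, 13, 20, 27, 27, 17, 19, 35, 31 and 48. The summit step at 75578601 to 75578800 reached a fold of 15.2 over 21.1 expected reads (adjusted p 1.7e-247, Poisson test with Benjamini-Hochberg adjustment), and every other step of the region was between 4.14 and 9.97. The smaller rise at 75577001 to 75577400 (folds 9.84 and 8.94) was separated from the summit by a dip to 60 ChIP reads at a fold of 4.42. Past the summit ChIP fell abruptly, from 135 to 4 and 1 reads in the next steps, while input went from 48 to 15 and 15.

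The narrow Mafa regions lay on 1 side of the broad one. At 75562001 to 75562400, with its summit step 16.4 kb from that of the broad region, 165 ChIP and 43 input reads gave a ratio of 5.65 (4.02 to 8.09), and its steps held 48 and 117 ChIP reads. At 75557401 to 75557600 there were 23 ChIP and 11 input reads, a ratio of 3.08 (1.44 to 6.99). This weakest of the 7 regions was near the limits of the call (fold 3.08, adjusted p 0.00049, Poisson test with Benjamini-Hochberg adjustment). With all deposited reads it held 29 ChIP and 13 input reads, a ratio of 1.33 (0.671 to 2.79), and was not called. The step after it held 10 distinct ChIP and 3 distinct input reads. Its fold was higher, at 4.60, but it missed the limit on adjusted p at 0.0103. Between the narrow regions and the broad one, steps at 75572001 and 75572201 held 11 and 10 ChIP reads beside 7 and 5 input reads (folds 2.31 and 2.94) and were called with input scaled outside regions.

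Set side by side, the 7 regions differed more in size than in ratio. Each called step needs a fold of at least 3, so the spread of ratios is limited from below by the call. The median of all 21210 regions was 400 bp wide with 111 ChIP reads and a ratio of 6.38. The broad Mafa region was matched or passed in ChIP reads by 0.151% of all regions and in width by 0.174%, but in ratio by 33.4%. The strongest Neurod1 region was matched or passed in ratio by 17.8% and in ChIP reads by 40.2%. The strongest Pdx1 region was matched or passed in ChIP reads by 31.0% and in ratio by 60.1%, and the weakest Mafa region in ChIP reads by 83.7%. Intervals of the ratio included 6.38 for 5 of the 7 regions. The broad Mafa region and the strongest Neurod1 region lay above it. Regions were called on an excess of ChIP over input, so their ratios are a description and not support for enrichment.

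**Figure D2:**
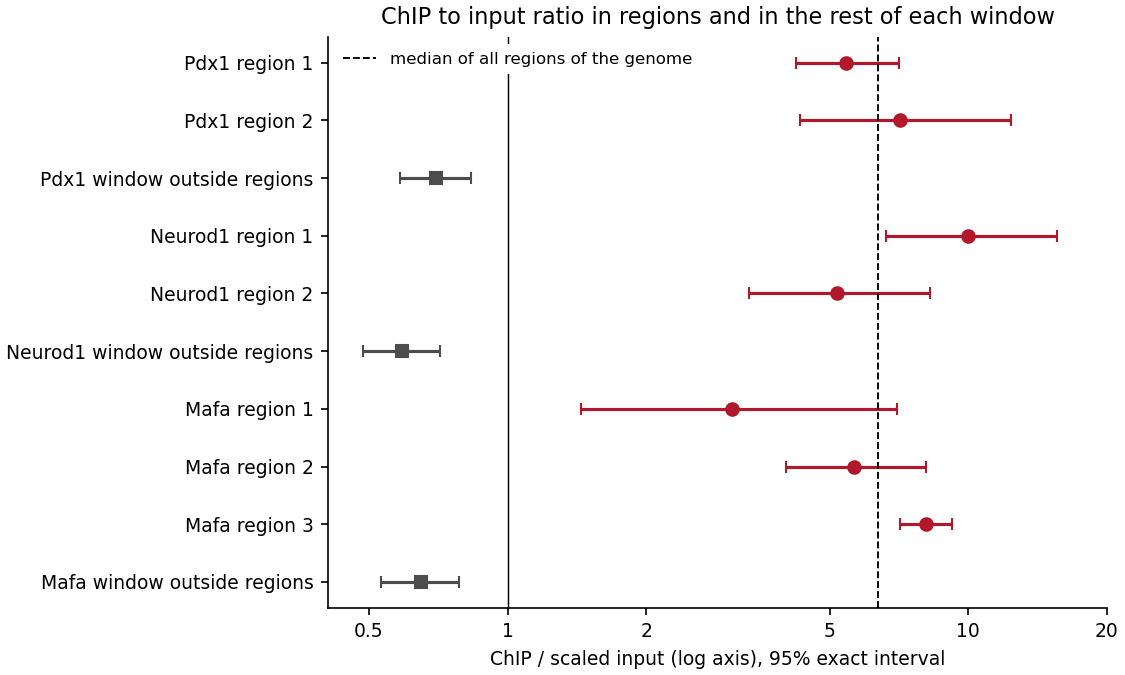
ChIP to scaled input ratio (log axis) of the 7 regions, red points numbered by position in each window, and of each window outside its regions, grey squares; bars are 95% exact intervals for counting error and the dashed line is the median of all regions of the genome, 6.38. Regions lie between 3.08 and 9.97, and the rest of each window between 0.589 and 0.698.

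**Figure D3:**
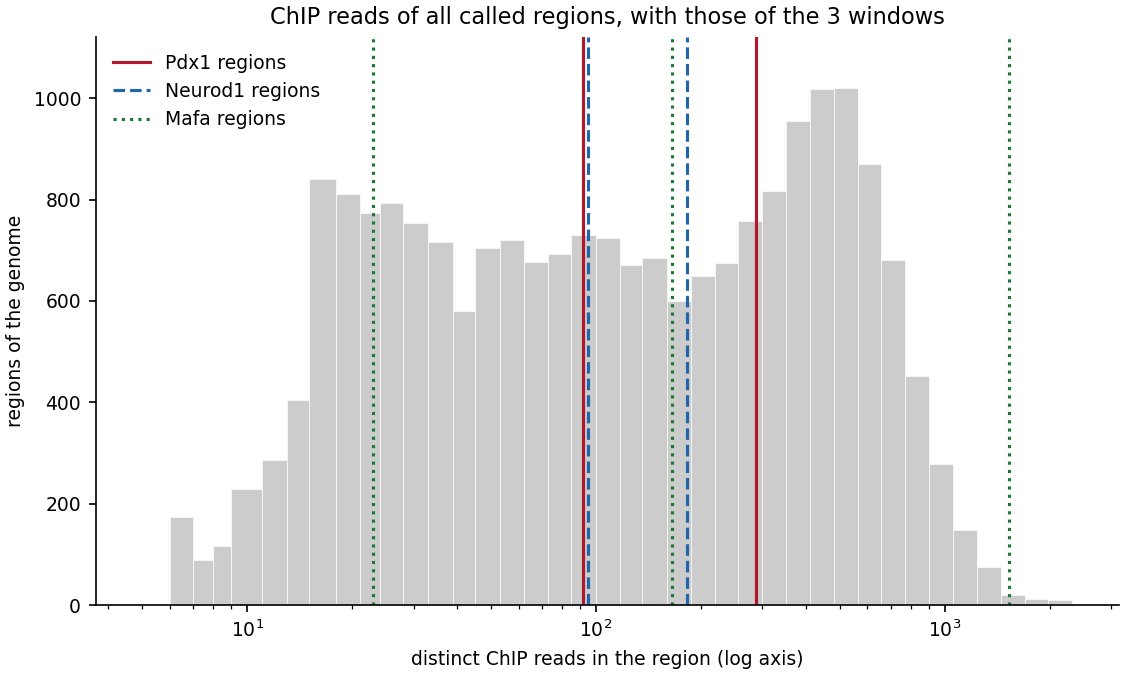
Number of regions of the genome by distinct ChIP reads per region (log axis), with vertical lines at the 7 regions of the Pdx1, Neurod1 and Mafa windows. Only the broad Mafa region, at 1527 reads, lies in the upper tail, and the other lines run from 23 to 288.

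Regions took up little of each window but most of its ChIP reads, as they did genome-wide. Over the genome 0.42% of bases held 57.5% of ChIP reads and 7.20% of input reads. Regions were called on an excess of ChIP reads, so a high ChIP share in them is partly built in. In the Pdx1 window 1.6% of bases held 67.1% of ChIP reads (95% Wilson interval 63.2 to 70.9) and 19.8% of input reads (16.5 to 23.6). In the Neurod1 window 1.6% of bases held 64.8% (60.2 to 69.2) of ChIP and 12.5% (9.73 to 16.0) of input reads. In the Mafa window 6.67% of bases held 91.8% (90.5 to 93.0) of ChIP and 48.8% (45.1 to 52.6) of input reads. Input was thus concentrated at the same places, at 121, 67.5 and 111 reads per kb in the regions of the Pdx1, Neurod1 and Mafa windows. Over all regions of the genome it was 81.1 reads per kb, against 4.40 outside regions.

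Outside their regions the 3 windows had ratios with overlapping intervals. These were 0.698 (0.583 to 0.834) for Pdx1, 0.589 (0.485 to 0.714) for Neurod1 and 0.647 (0.531 to 0.785) for Mafa. Remaining ChIP density was 3.78, 3.07 and 3.64 reads per kb, above the 1.37 of all sequence outside regions, and remaining input density was 7.97, 7.66 and 8.29, above 4.40. With input scaled outside regions the remaining ratios were 1.52 (1.27 to 1.82), 1.29 (1.06 to 1.56) and 1.41 (1.16 to 1.71).

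In the strongest region of each window, ChIP reads of the plus strand began before those of the minus strand by about a fragment length. Fragment length, from the shift that best matched the strands over the genome, was 220 bp in ChIP and 205 bp in input. Regions were called on ends already moved by strand, so an offset of this kind is partly built in. The strongest Pdx1 region had 141 plus and 150 minus 5 prime ends with medians 275 bp apart, the strongest Neurod1 region 97 and 87 with medians 245 bp apart, and the broad Mafa region 753 and 779 with medians 226 bp apart. In input the same distances were 199, 197 and -29 bp, from 42 plus and 36 minus, 17 and 13, and 141 and 151 ends. The offset was thus not particular to ChIP in the Pdx1 and Neurod1 regions. The Neurod1 summit was the cleanest: plus ends lay before and minus ends after a narrow gap. At the uncalled Neurod1 place 2.4 kb away the same arrangement was seen with few reads, up to 5 plus ends and up to 5 minus ends per 50 bp. Input ends there had the same order, up to 2 plus and then up to 4 minus ends per 50 bp.

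**Figure D4:**
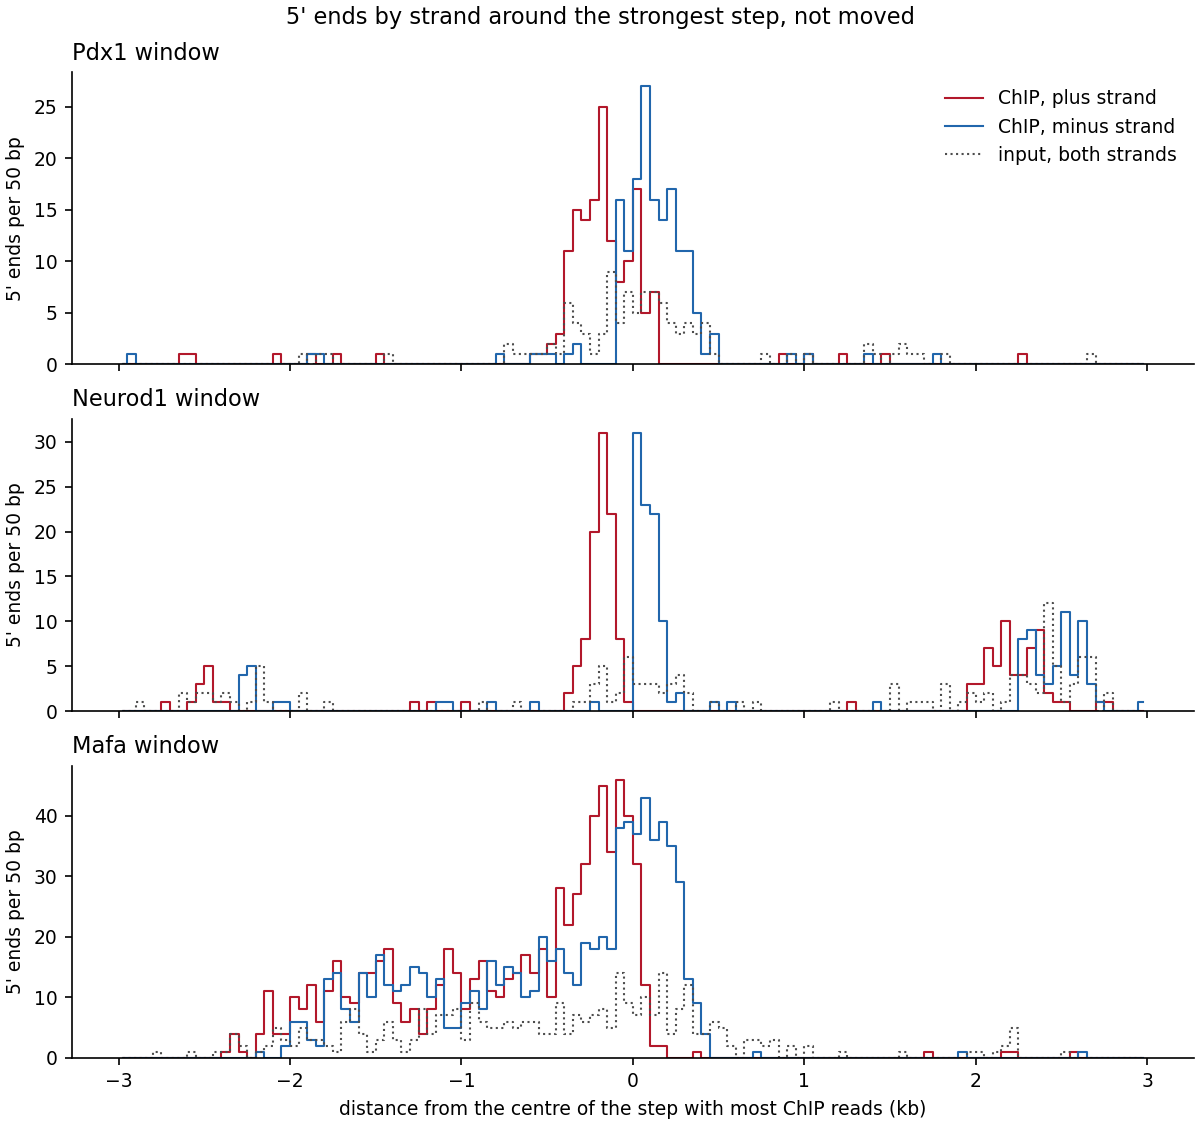
5 prime ends per 50 bp, not moved toward the fragment centre, within 3 kb of the centre of the strongest step of the Pdx1, Neurod1 and Mafa windows: ChIP plus strand in red, ChIP minus strand in blue, input of both strands dotted. The plus strand leads the minus strand at each summit, up to 31 ends per 50 bp on each strand at Neurod1, and the Mafa signal extends about 2 kb to 1 side.

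Keeping 1 read per place limited the tallest counts. A 200 bp step has 400 places for distinct reads, and the Mafa summit step filled 80.3% of them, against 37.3% at the strongest Neurod1 summit and 34% at the strongest Pdx1 summit. With all deposited reads the Mafa summit step held 1535 ChIP and 41 input reads and a fold of 22.4, rather than 15.2. The strongest steps of the other windows went the other way, from 10.4 to 8.62 at Neurod1 and from 11.1 to 9.18 at Pdx1. ChIP reads per distinct position were 2.99 in the broad Mafa region, 2.43 in the strongest Neurod1 region and 2.19 in the strongest Pdx1 region, and 1.65, 1.75 and 1.77 in the rest of the windows. Input had 1.20, 1.15 and 1.14 reads per position in those regions and 1.18, 1.07 and 1.16 in the rests. Repeated reads can be separate fragments or copies of 1 fragment, and these cannot be told apart here.

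More of the 7 regions were lost when dense input was left out than under any other setting tried. Regions were lost over the whole genome as well: this setting gave 10729 rather than 21210, and 0.24% rather than 0.806% of tested steps called. Leaving out each step whose input reached 10 times the mean removed the summit step of all 7 regions, which held 11 to 31 input reads. No step of the Pdx1 regions or of the narrow Mafa regions was then called. Of the broad Mafa region 1 flank step of 38 ChIP and 8 input reads was left, and of the Neurod1 regions a step of 34 ChIP and 6 input reads and a step of 46 and 9. Over the 12 alternative settings tried, both Neurod1 regions and the broad Mafa region were overlapped by a call in each (with dense input left out, by these flank steps alone), both Pdx1 regions and the Mafa region at 75562001 in 11, and the Mafa region at 75557401 in 8.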

How the data were processed

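Both libraries were deposited by the authors as aligned reads, 1 line per read with chromosome, start, end and strand. In the deposited lines the name column always holds 1, so lines add up to a raw read count, and the score column always holds 0. The submitters' processing notes name BWA, SAMtools 0.1.19, bedtools 2.17.0 and mm9; filters and settings are not given in the sources used here. Aligned lengths were 33 to 38 bp. The ChIP file held 34890624 reads (4.12 per nuclear position and strand) and the input file 20896067 (1.67).

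Analyses used Python 3.11.15, NumPy 2.4.6, SciPy 1.17.1, pandas 2.3.3, statsmodels 0.14.6 and matplotlib 3.10.9. Mitochondrial reads were left out, 1 read per place was kept, and 5 prime ends were moved 110 bp toward the fragment centre (0.5 of the ChIP fragment length, from strand matching at 80 to 400 bp in steps of 5 bp). Steps with at least 1 read in either library were tested. The step's own input was part of the expected count and no high-input steps were left out. The call and the intervals were tested on simulated data. Intervals on ratios are exact conditional binomial intervals. The members, the windows and the settings were chosen with earlier results of these data known. Every region in the windows is described. No mm9 annotation or sequence was used, so positions are not assigned to promoters, exons or enhancers, and the planned counts at start sites and over a list of other islet genes were not run. The planned protein search was not run. Promoter sequences come from RefSeq (GRCm38.p6), with 2 of 3 members matched by symbol.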

Additional observations from a re-analysis of the deposited data

How the results depend on the processing

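No paired analysis was possible because there was a single library of each kind. Calls were repeated under 12 alternatives. Scaling outside regions raised the window ratios to 8.82 (Mafa), 3.72 (Pdx1) and 3.20 (Neurod1), the strongest folds to 33.3, 24.3 and 22.8, the Neurod1 region count to 4, and the share of ChIP reads in regions to 93.5% for Mafa and 70.6% for Neurod1. All deposited reads lowered the window ratios to 1.21 (Pdx1) and 1.14 (Neurod1) and the Pdx1 share to 56.9%. Leaving out steps of high input gave 0 Pdx1 regions and 1 Mafa region, shares of 0, 18.6% (Neurod1) and 2.03% (Mafa), and 0.24% of steps called genome-wide. A fold of at least 5 gave 0.516% of steps and shares of 40.3% (Pdx1), 53.4% (Neurod1) and 78.7% (Mafa). Without the step's own input in the expected count the Neurod1 fold was 28.1, and the shares were 69.2% (Neurod1) and 93.5% (Mafa). Steps of 500 bp gave a Mafa fold of 8.90 and a Pdx1 share of 57.8%. Steps starting 100 bp later gave shares of 60.4% (Pdx1) and 52.2% (Neurod1), and 5 prime ends not moved gave 49.2% (Neurod1). Testing only steps with at least 10 reads called 43% of a much smaller number of steps. The cause of these shifts was not tested. The order of the window ratios, Mafa, Pdx1, Neurod1, was the same with all deposited reads and with ends not moved. Moving ends by 110 bp hardly alters the count of a whole window, and the other scaling changes every ratio by the same factor. The other scaling could therefore not change the order, and the order of Pdx1 and Neurod1 was within counting error. No window ratio fell below 1. The strongest fold stayed above 1 too, but it is taken at the step with most ChIP reads, so this is partly built in.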

Other observations

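Places of raised input with no ChIP reads also occurred around these genes. By the mirrored rule, with input tested against the ChIP library, 5 steps of the Pdx1 window (2.84% of those tested), 1 of the Neurod1 window (0.543%) and 3 of the Mafa window (1.96%) were lower in ChIP, beside 0.629% of the genome. All 9 held 0 ChIP reads, a count that allows up to 3. In the Pdx1 window the deepest was at 148069601 to 148069800 with 13 input reads, followed by 148076401 with 12. In the Mafa window 18 input reads lay at 75588001 to 75588200 and 13 at 75588401. With input scaled outside regions 3 of the Pdx1 steps, 0 of the Neurod1 steps and 2 of the Mafa steps were still lower. These were among 176, 184 and 153 tested steps, and the share over the genome was then 0.162%.

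In the RefSeq table of GRCm38.p6 the nearest protein-coding neighbours of Pdx1 are Gsx1 and Cdx2, those of Neurod1 are Cerkl and Itprid2, and those of Mafa are Rhpn1 and Zc3h3. Whether parts of these neighbours lie in the mm9 windows was not determined, so reads of a window are not shown to belong to its named gene alone.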
